A study of Mus musculus with 15 samples.

Results

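The genes described here were 30 genes of the endoplasmic reticulum (ER), the compartment where secreted and membrane proteins are folded. They were taken by gene symbol and grouped by role. Folding chaperones and their cofactors made up 12 of them (Hspa5, Hsp90b1, Hyou1, Hspa13, Calr, Canx, Dnajb9, Dnajb11, Dnajc3, Sdf2l1, Manf and Creld2). Enzymes of disulfide bonds made up 6 (P4hb, Pdia3, Pdia4, Pdia6, Erp44 and Dnajc10), and degradation genes 7 (Sel1l, Syvn1, Herpud1, Edem1, Derl1, Derl2 and Derl3). The stress sensor Ern1 and its target Xbp1 formed a group of 2, and entry genes for proteins crossing into the ER (Sec61a1, Sec61b and Ssr1) a group of 3. All 30 had an identifier among the 78317 of the count tables, and all 30 passed the filter on low counts that left 20269 genes for testing.

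The libraries were RNA-seq libraries of ventricles from mouse embryos of the C57BL/6 strain at embryonic day 11.5. In the CDS line, loxP sites lie around exons 2 and 3 of Atf4, so that coding sequence is removed and the polyadenylation signal (PAS) is kept. In the PAS line, loxP sites lie around the polyadenylation signal of Atf4. There were 4 CDS knockout, 4 CDS control, 4 PAS knockout and 3 PAS control libraries, all with batch label 1. Knockouts of both lines carry Xmlc2-Cre, which the labels describe as cardiomyocyte-specific, so Atf4 is left unedited in the other ventricular cell types by design. The labels name the control genotype only as control, without saying which alleles it carries, and do not say whether embryos were pooled. They also conflict on the libraries: the design text names ventricles and a stranded poly(A) kit, but the protocol for RNA speaks of cultured cortical neurons and depletion of ribosomal RNA. Summed cardiomyocyte markers stood between 36657 and 43213 CPM (counts relative to library size after scaling) in the 15 libraries and summed neuron markers between 35.9 and 54.3 CPM.

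Atf4, which encodes a transcription factor of the stress response, averaged 44.5 ± 3.56 CPM in CDS knockouts, against 114 ± 1.99 CPM in CDS controls (SD, n = 4 each). It averaged 286 ± 18.8 CPM in PAS knockouts (n = 4) and 97.1 ± 4.27 CPM in PAS controls (n = 3). The log2 change was -1.36 ± 0.05 (SE) in CDS knockouts (edgeR's quasi-likelihood test, adjusted p = 1.25e-13) and 1.56 ± 0.06 in PAS knockouts (adjusted p = 4.25e-14). The libraries labelled PAS knockout therefore held more Atf4 fragments than their controls, and directions in that line are given for the labels as they stand. The ER genes together took 0.628% to 0.730% of all counts in every library, in totals of 22623499 to 46472141 counts. CDS knockouts 3 and 4 stood apart with 162 and 235 CPM of summed choroid plexus markers, where CDS knockouts 1 and 2 had 26.2 and 32.7 CPM and CDS controls 24.0 to 59.8 CPM.

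Unfolded proteins in the ER activate the sensors encoded by Ern1, Eif2ak3 and Atf6, a programme called the unfolded protein response. The product of Ern1 splices the Xbp1 message, cleaved ATF6 enters the nucleus, and the kinase encoded by Eif2ak3 raises translation of ATF4. XBP1 and ATF6 drive chaperone and degradation genes, largely through the ER stress response element (ERSE), and ATF4 binds a composite element in genes of amino acid supply and some stress genes. Whether the ER genes differ with Atf4 deletion is the question these libraries can address.

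RefSeq promoter windows (GRCm38.p6), 250 bases before to 50 after the start, were held for 25 of the 30 genes. The ERSE was searched on both strands as CCAAT and CCACG with 9 bases of any kind between them. It was present in 9 of these 25 genes (36%), against 37 of all 27025 genes with a window (0.137%). The list and the element were both chosen for ER stress, so this share is a description and no test. The matches are shown because, of the 4 motifs searched, this element was found in the most of the 25 genes. Capitals mark the fixed letters, and each is written 5′ to 3′ on the strand that carries the motif.
Hspa5, chr2:34772025-34772043: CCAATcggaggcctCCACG
Hsp90b1, chr10:86705533-86705551: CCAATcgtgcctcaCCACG
Hsp90b1, chr10:86705638-86705656: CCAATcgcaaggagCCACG
Calr, chr8:84847075-84847093: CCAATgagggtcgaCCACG
Canx, chr11:50325800-50325818: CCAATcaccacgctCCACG
Dnajc3, chr14:118937827-118937845: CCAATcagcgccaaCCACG
Creld2, chr15:88819520-88819538: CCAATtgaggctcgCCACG
Pdia6, chr12:17266491-17266509: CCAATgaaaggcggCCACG
Syvn1, chr19:6046532-6046550: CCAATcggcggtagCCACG
Derl3, chr10:75893242-75893260: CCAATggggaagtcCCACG

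Hsp90b1 carried 2 copies. The shorter ERSE-II form was searched as ATTGG and CCACG with any 1 base between them. It was found in 2 of the 25 genes (8%), Herpud1 and Dnajb11, against 12 of 27025 genes (0.0444%). The ATF4 composite element, searched as TGATGNAA, was found in 1 gene (4%), Herpud1, against 1219 of 27025 genes (4.51%). The element TGACGTGG, to which XBP1 binds, was in none of the 25 genes and in 193 of all 27025 (0.714%). Herpud1 was the only one of the 25 whose window matched both an ERSE form and the ATF4 composite.
Herpud1, chr8:94386377-94386387: ATTGGgCCACG
Herpud1, chr8:94386317-94386324: TGATGcAA
Dnajb11, chr16:22857852-22857862: ATTGGcCCACG

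The whole window of Hspa5, the main ER chaperone, is given to show where the element lies: it began 65 bases upstream of the start, on the plus strand of chr2:34771840-34772139. Capitals again mark the fixed letters of the ERSE. A match of letters is a description and does not show that a factor binds there.
Hspa5 promoter window: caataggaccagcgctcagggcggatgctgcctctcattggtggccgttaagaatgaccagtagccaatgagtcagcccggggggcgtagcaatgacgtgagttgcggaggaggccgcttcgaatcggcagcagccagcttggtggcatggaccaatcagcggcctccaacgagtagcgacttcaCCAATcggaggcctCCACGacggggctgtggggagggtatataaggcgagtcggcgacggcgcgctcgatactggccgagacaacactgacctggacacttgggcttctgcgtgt

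The levels of the 30 genes spanned a wide range, in which the major chaperones and disulfide enzymes stood far above the degradation and sensor genes. On a scale of CPM per kilobase of exon, Calr, a lectin chaperone, stood first in CDS controls at 321, followed by Hspa5 at 229, Pdia3 at 218, P4hb at 175, Hsp90b1 at 171, Canx at 148, Pdia6 at 107 and Pdia4 at 97.0. The first 9 genes had the same order in all 4 groups. P4hb and Hsp90b1 were closer in CDS controls than the sum of their SDs, so their order is not set by these libraries. Other pairs were that close in other groups, among them Hspa5 (218 ± 21.0) and Pdia3 (216 ± 15.5) in PAS knockouts. Dnajb11, a cofactor of Hspa5, stood at 35.7 and Sec61a1, the channel protein of ER entry, at 28.9. Below these the roles were mixed. Xbp1 at 27.4 and Derl1 at 24.7 stood above Erp44 at 16.8, Dnajb9 at 10.5 and Hspa13 at 8.55.

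The 4 lowest levels belonged to degradation and sensor genes. Herpud1, which helps to recruit the degradation machinery, stood at 17.9 CPM per kilobase in CDS controls, and Syvn1, the ubiquitin ligase of that machinery, at 9.86. Edem1, which handles misfolded glycoproteins, stood at 6.51, Derl2 at 4.64 and Ern1 at 3.17. Derl3 was the lowest at 0.601. Its counts ran from 14 to 55 per library, so its values are the least precise of the list.

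**Figure D1:**
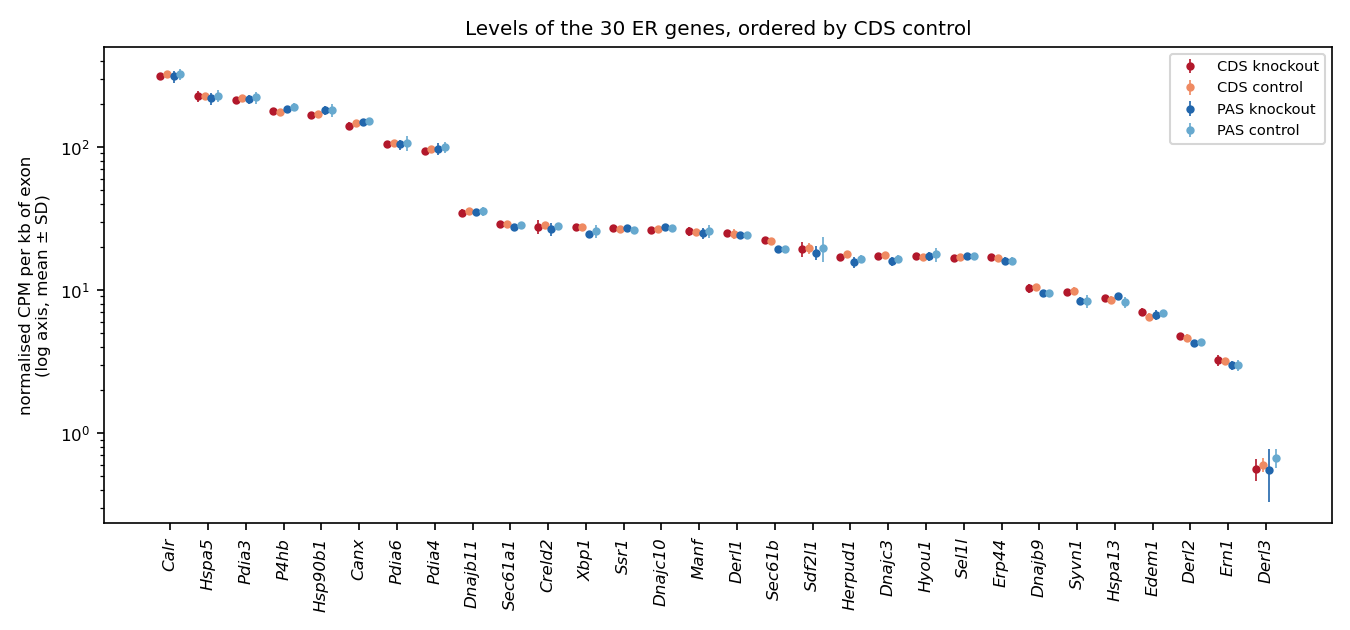
Level of each of the 30 genes in each group, in CPM per kilobase of exon on a log axis. Points are group means, and the general chaperones at the high end keep the same order of the first 9 genes in every group, with Derl3 lowest.

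In CDS knockouts, no ER gene passed the test against CDS controls. Of all 20269 genes, 11 were called (0.0543%), 2 higher and 9 lower, and 0 of the 30 ER genes were among them by edgeR's quasi-likelihood test, by DESeq2 or by limma-voom. At an unadjusted p under 0.05 the count was also 0, against 2.62% of all genes. In none of the 30 did the knockout and control libraries stand apart without overlap, which 2.8% of all genes did. The median log2 change was -0.0155 over the 30 genes, against -0.00108 over all genes tested, and 18 of the 30 changes were negative, as were 50.6% of those of all genes. Without CDS knockout 1 the median was 0.00286 and 14 were negative. Edem1 passed an unadjusted p of 0.05 without CDS knockout 2, without CDS control 4 and without the filter on low counts.

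Among folding chaperones, Hspa5 (ENSMUSG00000026864.14, chr2:34661982-34667559, plus strand, GRCm39) gave 943, 989, 849 and 1052 CPM in the CDS knockout libraries, against 945, 963, 966 and 996 CPM in the CDS control libraries. Both the highest and the lowest library were knockouts, and the controls lay between them. The log2 change was -0.01 ± 0.07 (SE, adjusted p = 1.00), with a 95% interval of -0.17 to 0.14. Hsp90b1 (ENSMUSG00000020048.14, chr10:86526073-86541373, minus strand), the chaperone of secreted and surface receptors, gave 690.4, 688, 622 and 699 CPM in the CDS knockout libraries, against 662, 678, 709 and 709 CPM in the CDS control libraries. CDS knockout 3 was the lowest of the 8 and the others overlapped. Exons of Hsp90b1 share 20.9% of their bases with a gene on the opposite strand that held 0.667% as many fragments. Calr (ENSMUSG00000003814.9, chr8:85568479-85573563, minus strand) gave 878, 905, 837 and 959.8 CPM in the CDS knockout libraries, against 915, 927, 932 and 923 CPM in the CDS control libraries, and the knockouts spread to both sides of the controls, at a log2 change of -0.05 ± 0.06.

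Canx (ENSMUSG00000020368.16, chr11:50184788-50216500, minus strand), the membrane-bound lectin chaperone, gave 684, 672, 606 and 686 CPM in the CDS knockout libraries, against 712, 678, 675 and 707 CPM in the CDS control libraries. Its log2 change was -0.07 ± 0.04 (interval -0.16 to 0.03). The groups overlapped, and CDS knockout 3 again was the lowest. Changes of the other 8 folding genes lay between -0.05 (Dnajb11) and 0.03 (Hspa13) on the log2 scale, with Hyou1, Dnajb9, Dnajc3, Sdf2l1, Manf and Creld2 between them, and 9 of the 12 folding genes were negative. Of the 6 disulfide enzymes, 4 were negative. Pdia4, the furthest from 0, averaged 223 ± 11.6 CPM in CDS knockouts, against 233 ± 4.95 CPM in CDS controls, and P4hb, a subunit of prolyl hydroxylase as well as a disulfide isomerase, averaged 510 ± 11.7 CPM in CDS knockouts, against 501 ± 14.1 CPM in CDS controls. Pdia3 and Pdia6 had log2 changes of -0.03 each, Dnajc10 -0.01 and Erp44 0.03.

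The degradation gene Edem1 (ENSMUSG00000030104.10, chr6:108805602-108836317, plus strand) had the lowest p of the list in the CDS line. It gave 44.2, 42.6, 49.6 and 44.4 CPM in the CDS knockout libraries, against 38.9, 42.2, 42.9 and 44.1 CPM in the CDS control libraries. The highest value was a knockout and the lowest a control, yet the other values overlapped, and the log2 change was 0.10 ± 0.06 (interval -0.01 to 0.22, edgeR adjusted p = 1.00). Herpud1 (ENSMUSG00000031770.17, chr8:95113066-95122005, plus strand), with ERSE-II and ATF4 composite matches in its promoter, gave 36.8, 39.4, 40.5 and 41.2 CPM in the CDS knockout libraries, against 40.6, 44.6, 42.4 and 39.2 CPM in the CDS control libraries, which overlapped, at a log2 change of -0.08 ± 0.06. Sel1l, the partner of Syvn1, had a log2 change of -0.04 ± 0.04, Syvn1 -0.02 ± 0.06, Derl1 0.01 ± 0.05, Derl2 0.03 ± 0.05 and Derl3 -0.08 ± 0.24.

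The sensor gene Ern1 (ENSMUSG00000020715.10, chr11:106285476-106378678, minus strand) gave 24.2, 26.9, 29.4 and 25.3 CPM in the CDS knockout libraries, against 26.0, 25.7, 25.8 and 26.0 CPM in the CDS control libraries. Its controls lay within the range of the knockouts. Xbp1 (ENSMUSG00000020484.20, chr11:5470659-5475893, plus strand) gave 84.3, 88.4, 91.0 and 93.2 CPM in the CDS knockout libraries, against 87.0, 96.1, 86.8 and 86.0 CPM in the CDS control libraries, which overlapped as well. Their log2 changes were 0.03 ± 0.06 for Ern1 and 0.00 ± 0.05 for Xbp1, and counts per gene do not tell spliced from unspliced Xbp1. Entry genes gave log2 changes of -0.01 ± 0.04 (Sec61a1), 0.04 ± 0.05 (Sec61b) and 0.03 ± 0.04 (Ssr1, part of the translocon-associated complex).

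The 95% intervals give the sizes of change in whole-ventricle RNA that these libraries leave possible. They are per gene, unadjusted for the number of genes, and do not bound a change within cardiomyocytes alone. In the CDS line, the intervals of 28 of the 30 genes lay between -0.20 (Herpud1, a fold of 0.870) and 0.22 (Edem1, a fold of 1.16) on the log2 scale. Sdf2l1, a cofactor of Hspa5 with lower counts, had an interval of -0.25 to 0.22, and Derl3 one of -0.58 to 0.41. All 9 genes with an ERSE had a negative change, with a median of -0.0305. Of the 16 genes whose window held no ERSE, 8 were negative, with a median of -0.00367. These 16 include Herpud1 and Dnajb11, which hold the shorter ERSE-II. None of these changes passed the test. Most of the 9 are folding or disulfide genes, and element and role were not separated. Without CDS knockout 3, 6 of the 9 were negative with a median of -0.00802, and Hspa5 (0.04), Creld2 (0.02) and Hsp90b1 (0.00707) were positive. Summed endothelial markers stood at 1879 to 2015 CPM in CDS knockouts and 2050 to 2161 CPM in CDS controls, without overlap. Without CDS knockouts 3 and 4, 0 ER genes were called, and 24 of the 30 changes were negative with a median of -0.0179. The part of cell makeup in these values was not tested, and in whole tissue fewer cells of a type and less RNA per cell cannot be told apart.

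**Figure D2:**
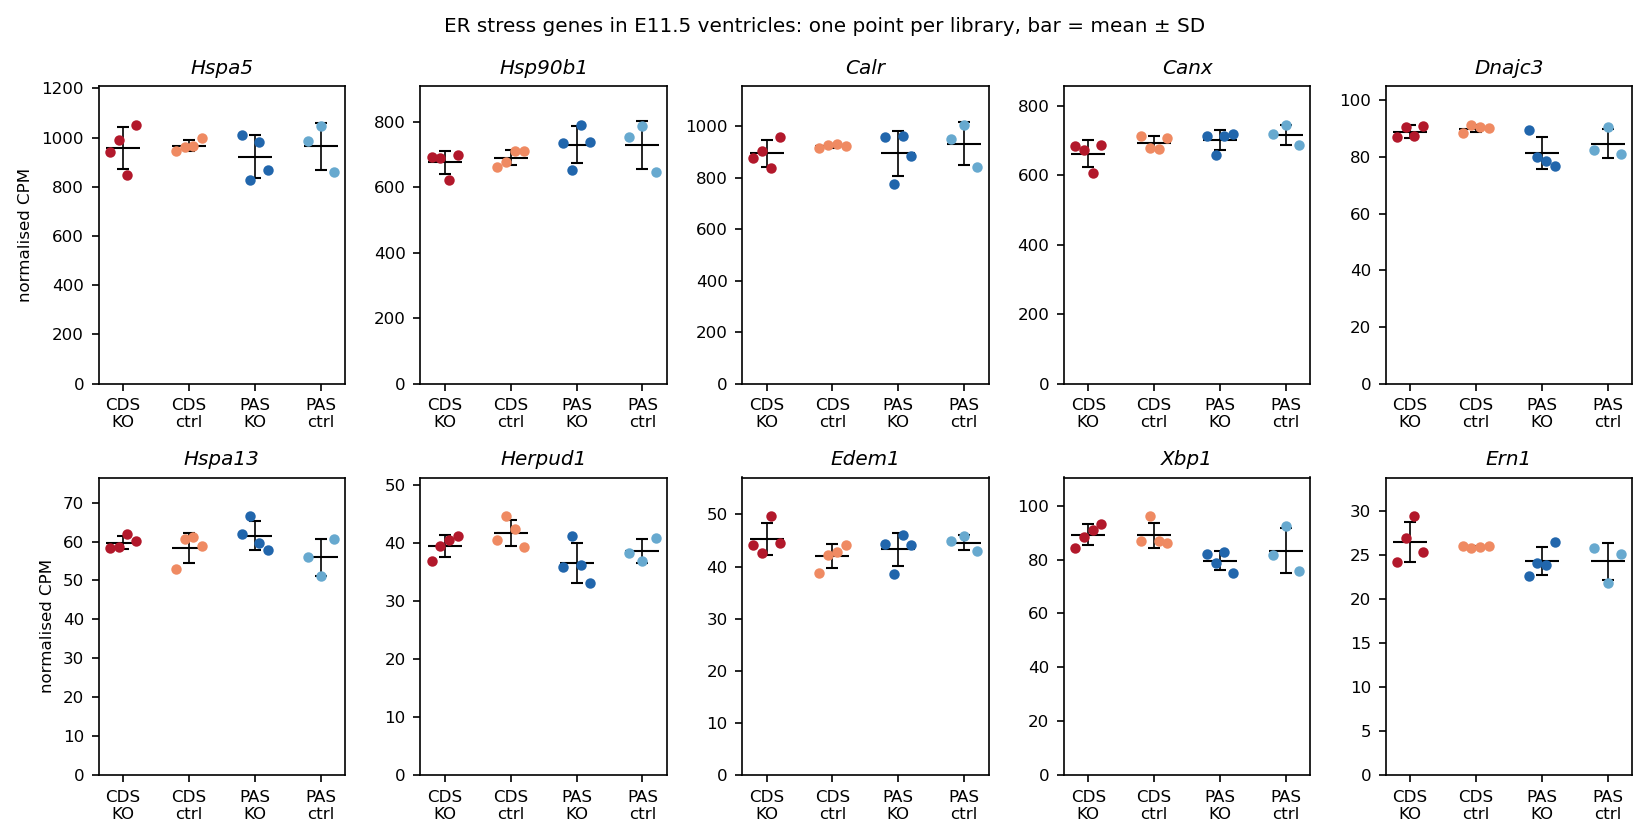
Normalised CPM of the genes given by library, one point per library, with CDS knockout, CDS control, PAS knockout and PAS control from left to right in each panel. Knockout and control points overlap in both lines for every gene shown.

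In PAS knockouts, again no ER gene passed the test against PAS controls. All genes gave 2 calls (0.00987%), 1 higher and 1 lower, and the ER genes gave 0 by edgeR, DESeq2 and limma-voom. At an unadjusted p under 0.05 there was 1 of 30, Hspa13, where all genes had 5.24%, and 0 of the 30 had groups without overlap, where all genes had 4.59%. The changes leaned to one side, with 24 of the 30 negative and a median of -0.0384, against 50.6% negative and a median of -0.00149 for all genes. That lean rested on single libraries. There were 14 negative changes and a median of 0.00594 without PAS control 2, and 14 and a median of 0.00127 without PAS knockout 2. Without PAS control 3 the median was -0.0675 and 4 genes had an unadjusted p under 0.05 (Hspa13, Pdia6, Xbp1 and Pdia3), and without PAS control 1 or PAS control 2 there were 0.

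Hspa13 (ENSMUSG00000032932.16, chr16:75542319-75563992, minus strand), an HSP70-type protein of microsomes, gave 61.9, 66.5, 59.7 and 58.0 CPM in the PAS knockout libraries, against 56.0, 51.2 and 60.6 CPM in the PAS control libraries. PAS knockout 2 was the highest and PAS control 2 the lowest, and PAS control 3 lay above PAS knockouts 3 and 4. Its log2 change was 0.14 ± 0.06 (interval 0.01 to 0.26, edgeR adjusted p = 0.934). Dnajc3 (ENSMUSG00000022136.9, chr14:119175388-119219109, plus strand), a cofactor of Hspa5 that also restrains the kinase encoded by Eif2ak3, gave 89.5, 80.1, 78.6 and 76.9 CPM in the PAS knockout libraries, against 82.4, 90.6 and 81.0 CPM in the PAS control libraries. PAS control 2 was the highest of the 7 and the rest overlapped, at a log2 change of -0.06 ± 0.05.

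The abundant chaperones spread as widely among PAS libraries of 1 group as between groups. Hspa5 gave 1012, 827, 984 and 869 CPM in the PAS knockout libraries, against 985, 1047 and 861 CPM in the PAS control libraries (log2 change -0.06 ± 0.08). Calr gave 959, 777, 964 and 884 CPM in the PAS knockout libraries, against 949, 1006 and 844 CPM in the PAS control libraries (-0.06 ± 0.07). PAS knockout 2 was the lowest knockout for both genes and PAS control 3 the lowest control. Hsp90b1 gave 734, 653, 790.1 and 737 CPM in the PAS knockout libraries, against 752, 786 and 647 CPM in the PAS control libraries, and Canx gave 713, 657, 713 and 717 CPM in the PAS knockout libraries, against 717, 745 and 685 CPM in the PAS control libraries, with log2 changes of 0.00 ± 0.06 and -0.03 ± 0.05. In both, the same 2 libraries were the lowest of their groups. The other folding genes had log2 changes of -0.05 for Hyou1 and Manf, -0.06 for Creld2, -0.11 for Sdf2l1 and -0.01 for Dnajb9 and Dnajb11, and 10 of the 12 folding genes were negative.

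Disulfide enzymes in the PAS line had log2 changes of -0.04 for P4hb, Pdia3, Pdia4 and Pdia6, -0.00237 for Erp44 and 0.02 for Dnajc10. Herpud1 gave 35.7, 41.2, 36.1 and 33.0 CPM in the PAS knockout libraries, against 38.2, 36.8 and 40.9 CPM in the PAS control libraries, at -0.08 ± 0.07, and the groups overlapped. Edem1 gave 44.4, 38.7, 46.1 and 44.1 CPM in the PAS knockout libraries, against 45.0, 45.8 and 43.0 CPM in the PAS control libraries, at -0.04 ± 0.06, where PAS knockout 2 was the lowest. Of the 7 degradation genes 6 were negative, with a median of -0.00485, and Derl3 stood furthest from 0 at -0.30 ± 0.28, with an interval of -0.87 to 0.28. Sel1l was at -0.00485, Derl1 at -0.00462, Derl2 at -0.00182 and Syvn1 at 0.0146.

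Xbp1 gave 81.9, 78.7, 82.9 and 74.9 CPM in the PAS knockout libraries, against 81.6, 92.4 and 75.8 CPM in the PAS control libraries, and Ern1 gave 22.6, 24.0, 23.9 and 26.4 CPM in the PAS knockout libraries, against 25.7, 21.8 and 25.1 CPM in the PAS control libraries. Both overlapped, with log2 changes of -0.07 ± 0.06 for Xbp1 and -0.000211 ± 0.0722 for Ern1. Entry genes lay at -0.04 ± 0.04 (Sec61a1), 0.00 ± 0.06 (Sec61b) and 0.03 ± 0.04 (Ssr1). Intervals of 28 genes lay between -0.23 (Creld2, a fold of 0.851) and 0.26 (Hspa13, a fold of 1.20), and that of Sdf2l1 reached down to -0.37. With an ERSE, 7 of 9 genes were negative, with a median of -0.0584. Without one, 13 of 16 were negative, with a median of -0.00816, and these 16 again include Herpud1 and Dnajb11 with an ERSE-II. Of those 9 genes, 5 were negative without PAS knockout 2 and 6 without PAS control 2, with medians of -0.00555 and -0.000573.

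**Figure D3:**
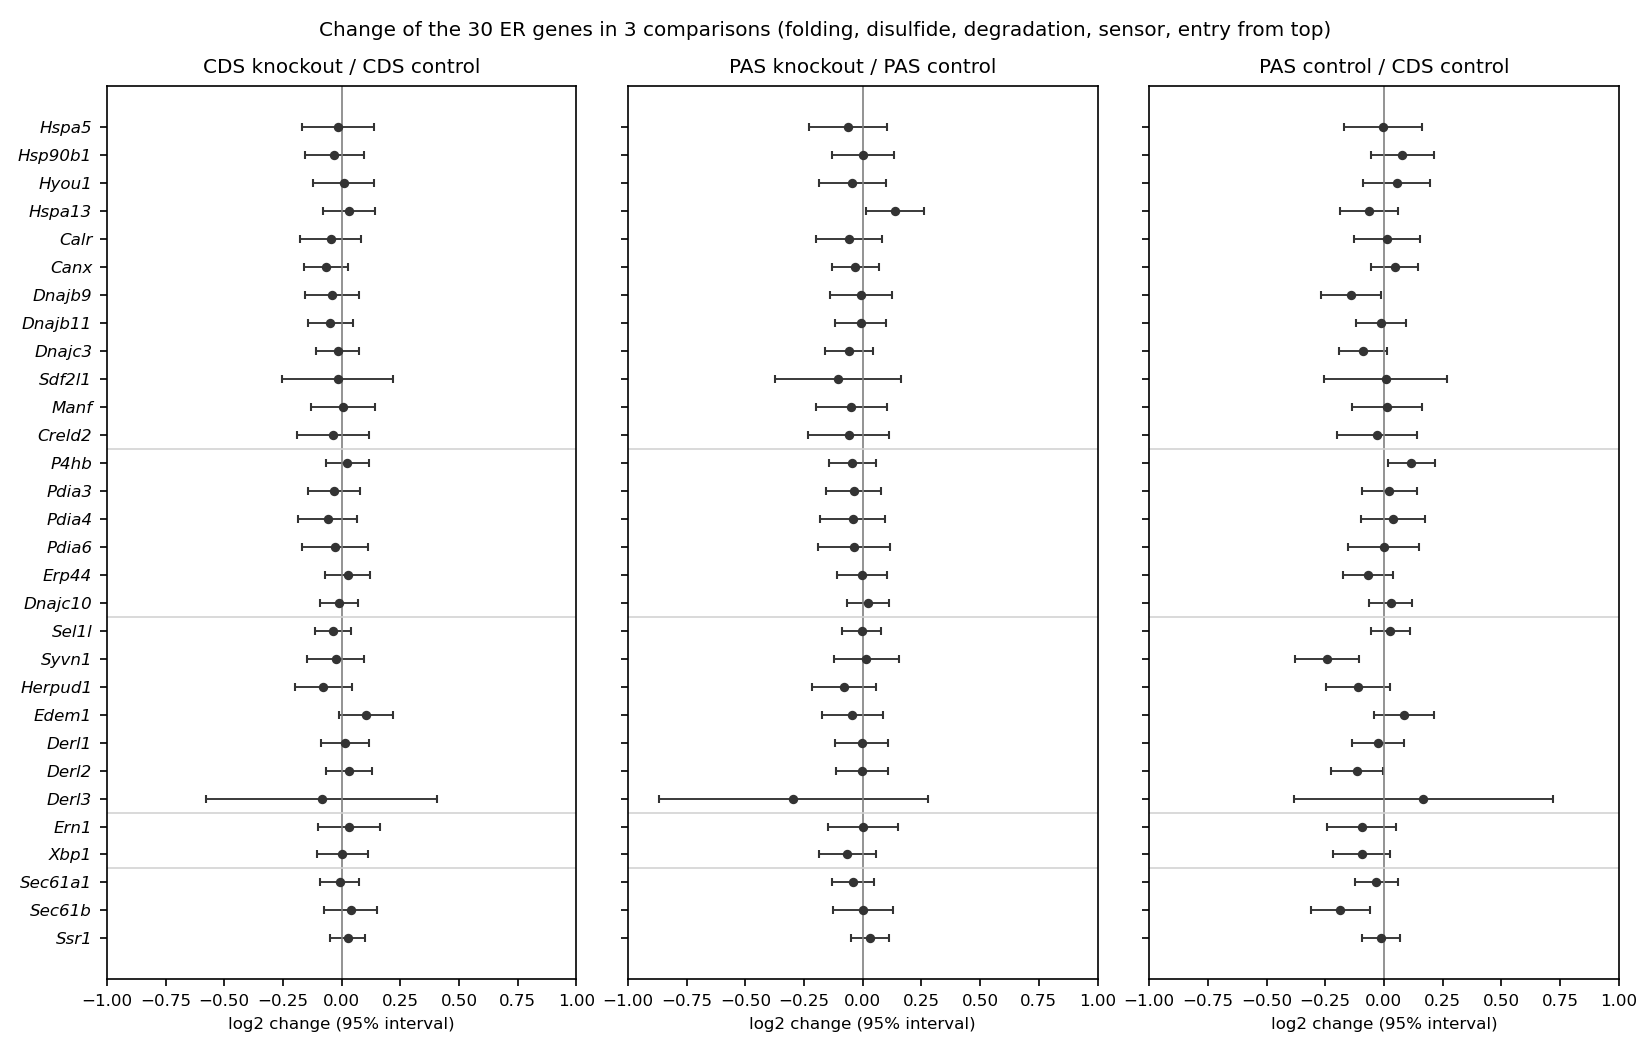
Log2 change of each of the 30 genes, with 95% intervals from edgeR. Panels show CDS knockouts against CDS controls, PAS knockouts against PAS controls, and PAS controls against CDS controls. Every interval of the CDS line crosses 0, as does every interval of the PAS line but that of Hspa13. Between the controls, the intervals of Syvn1, Sec61b, P4hb, Dnajb9 and Derl2 do not cross 0.

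The change in the CDS line was set against that in the PAS line by testing the difference itself. Of all genes 1 was called (0.00493%) and of the ER genes 0, with 0 of 30 at an unadjusted p under 0.05, where all genes had 4.16%. The difference (CDS minus PAS) was positive in 20 of the 30, with a median of 0.0204. It was negative in 18 without PAS control 2 and in 16 without CDS knockout 4, with medians of -0.0133 and -0.00538. Edem1 had a difference of 0.15 ± 0.08 (interval -0.02 to 0.32), Hspa13 one of -0.11 ± 0.08 (-0.27 to 0.06) and Hspa5 one of 0.05 ± 0.11 (-0.18 to 0.28). Intervals of 28 genes lay between -0.27 (Hspa13) and 0.32 (Edem1), and a difference beyond these bounds lies outside every one of the 28.

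PAS controls differed from CDS controls in no ER gene past the threshold, where 29 of all genes (0.143%) were called, 7 higher (0.0345%) and 22 lower (0.109%). The lines were counted in separate counting runs and their control libraries differ in depth, so line, counting run and depth cannot be told apart. Summed choroid plexus markers stood at 7.14 to 9.30 CPM in PAS controls and at 24.0 to 59.8 CPM in CDS controls, and summed liver and yolk sac markers at 16.8 to 27.7 CPM in PAS controls and at 28.5 to 52.0 CPM in CDS controls. Neither overlapped between the lines. Both marker lists hold the gene Ttr, so the sums are not independent, and the part of these markers in the values of the ER genes was not tested. At an unadjusted p under 0.05 there were 5 of the 30, against 9.6% of all genes, and 3 had groups without overlap (Syvn1, Sec61b and Dnajb9), against 9.46% of all genes. Syvn1 (ENSMUSG00000024807.19, chr19:6096606-6103742, plus strand) gave 36.5, 44.8 and 40.4 CPM in PAS controls, against 46.4, 44.9, 52.7 and 47.8 CPM in CDS controls. Its highest PAS control lay just under its lowest CDS control, and the log2 change was -0.24 ± 0.07 (edgeR, adjusted p = 0.174).

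Leaving out PAS control 1 moved the value of Syvn1 to -0.17 (adjusted p = 0.484) and leaving out PAS control 2 to -0.32 (adjusted p = 0.0609, edgeR), while without the filter on low counts it was called (-0.26, adjusted p = 0.00388). Exons of Syvn1 share 15.5% of their bases with a gene on the opposite strand that held 6.49% as many fragments, and 1.87% with Mrpl49, also on the opposite strand, which held 107.8% as many. The counting used no strand, so a fragment within the shared bases cannot be assigned to either gene by strand. Sec61b averaged 24.5 ± 1.05 CPM in PAS controls (n = 3) and 27.9 ± 1.5 CPM in CDS controls (n = 4), with an edgeR adjusted p of 0.276. Dnajb9, a cofactor of Hspa5, averaged 24.3 ± 0.995 CPM in PAS controls and 26.8 ± 1.01 CPM in CDS controls (adjusted p = 0.465, edgeR). Derl2, a membrane protein of the degradation complex whose exons share 2.87% of their bases with Mis12 on the opposite strand, averaged 34.5 ± 1.01 CPM in PAS controls and 37.4 ± 2.52 CPM in CDS controls (adjusted p = 0.484, edgeR). P4hb averaged 543 ± 35.9 CPM in PAS controls and 501 ± 14.1 CPM in CDS controls (adjusted p = 0.436, edgeR).

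Within groups, most folding and disulfide genes were low, or high, in the same libraries. For each library the median deviation of these 18 genes from their group means was taken as log2(CPM + 0.5), and it is a description with no test. It was -0.0904 in CDS knockout 3 and 0.0763 in CDS knockout 4, while CDS controls lay between -0.0192 and 0.0095. In the PAS line it was -0.114 in PAS knockout 2, 0.0825 in PAS knockout 1 and 0.0660 in PAS knockout 3, against -0.132 in PAS control 3 and 0.0896 in PAS control 2.

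Most of the 18 genes took part. CDS knockout 3 was the lowest of its group in 13 of them, PAS knockout 2 in 14 and PAS control 3 in 16 of the 18. Of all 20269 genes tested, these 3 libraries were the lowest of their groups in 6100, 6038 and 7170. CDS knockout 4 was the highest of its group in 15 of the 18, and in 5523 of all genes tested. Degradation genes had medians of -0.0186, -0.0307 and -0.000429 in CDS knockout 3, PAS knockout 2 and PAS control 3. These libraries were the lowest of their groups in 2, 5 and 2 of the 7 degradation genes. They were picked for their low folding and disulfide genes, so the role groups cannot be ranked by these medians. Sensor genes had medians of 0.0904, -0.0127 and -0.0378 in these 3 libraries, and entry genes 0.0201, -0.0394 and -0.0199.

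The low libraries differed in other ways too. Summed epicardial markers were 346 CPM in PAS knockout 2, where the other PAS knockouts had 402 to 432 CPM, and 339 CPM in PAS control 3, where the other PAS controls had 410 and 428 CPM. Endothelial markers summed to 1798 CPM in PAS control 3 and to 2012 and 2121 CPM in the other PAS controls. CDS knockout 3 had 383 CPM of epicardial markers, within the 367 to 389 CPM of its group, but 4434 CPM of erythroid markers against 1636 to 2361 CPM in the other CDS knockouts, and 36657 CPM of cardiomyocyte markers against 39685 to 40635 CPM. The part of these markers in the spread was not tested.

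The spread within groups differed between genes. Derl3 had the widest, with a pooled SD of 0.266 on the log2 scale at its low counts, then Sdf2l1 with 0.18, Creld2, induced by ER stress, with 0.122, Hspa5 with 0.118 and Pdia6 with 0.111. Sel1l, at 0.0417, and Ssr1, at 0.0367, had the narrowest. The median was 0.101 over folding genes, 0.0764 over disulfide enzymes, 0.0876 over degradation genes and 0.0526 over entry genes, against 0.0754 over the 9927 genes with a mean above 10 CPM. It was 0.103 over the 9 genes with an ERSE and 0.101 over these without Derl3. Over the 16 whose window held no ERSE, Herpud1 and Dnajb11 with an ERSE-II among them, it was 0.0717.

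**Figure D4:**
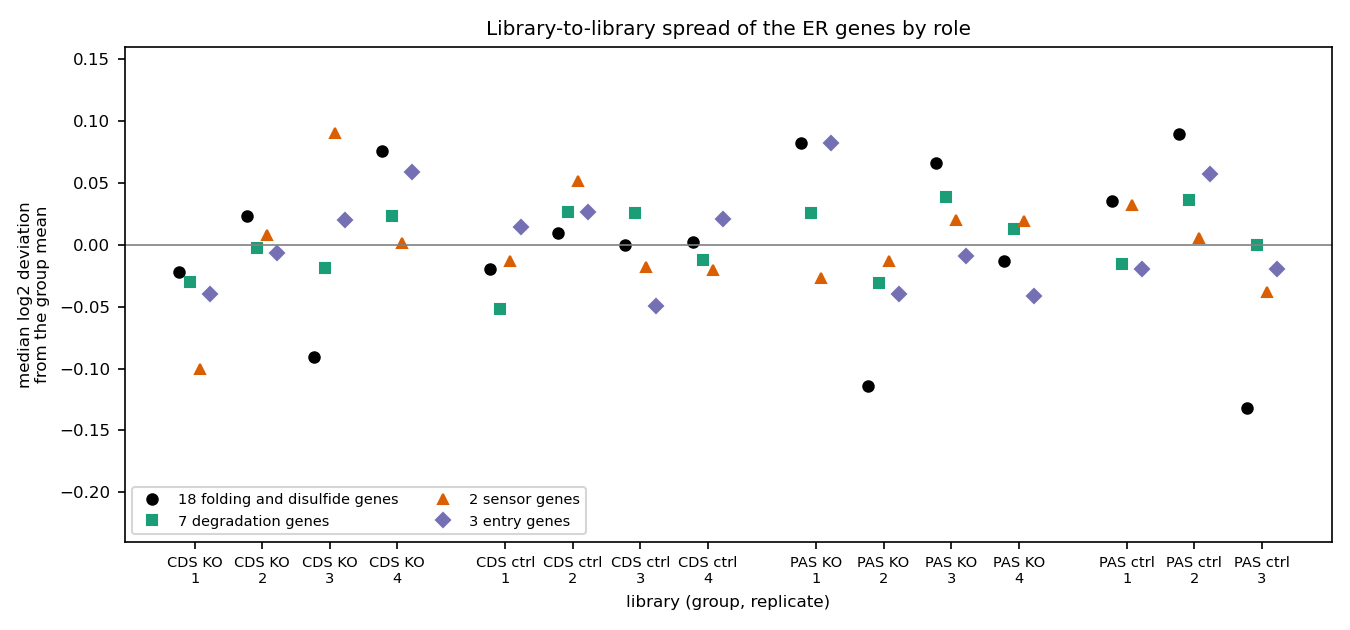
Median log2 deviation from the group mean in each library, by role group, with CDS knockout, CDS control, PAS knockout and PAS control libraries from left to right. Folding and disulfide genes are low together in CDS knockout 3, PAS knockout 2 and PAS control 3, at -0.0904, -0.114 and -0.132.

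No other gene of the pathway lists, among those matched by symbol and tested, was called in a knockout comparison either. Of 22 further folding genes tested, 18 degradation genes, 9 stress sensors and their proteases and 22 genes of translocation and glycosylation, 0 were called in either line, where 0.0543% of all genes were called in CDS knockouts and 0.00987% in PAS knockouts. At an unadjusted p under 0.05 the CDS line had 1 folding gene (Cnpy3) and 1 sensor (Creb3l1), where all genes had 2.62%. The PAS line had 1 folding gene (Txndc11) and 2 degradation genes (Ube2j1 and Os9), where all genes had 5.24%. Median log2 changes in CDS knockouts were 0.000182, 0.0127, -0.0138 and 0.000972 for folding, degradation, sensor and translocation genes, and in PAS knockouts -0.00648, 0.0197, -0.0310 and -0.00542. Txndc5, a disulfide enzyme and the most abundant of the further folding genes, averaged 274 ± 8.22 CPM in CDS knockouts, against 273 ± 10.6 CPM in CDS controls. Atf6, the sensor that acts through the ERSE, averaged 87.6 ± 1.84 CPM in CDS knockouts, against 90.6 ± 1.30 CPM in CDS controls. In the PAS line Atf6 averaged 94.5 ± 1.83 CPM in PAS knockouts and 93.8 ± 7.11 CPM in PAS controls.

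Of 12 genes listed for the ATF4 and CHOP branch, 11 were matched by symbol and 10 of them were tested. The rest are not described here. These 10 gave 0 calls. Their median log2 change was 0.0112 in CDS knockouts and -0.110 in PAS knockouts, where 8 of 10 were negative, as were 50.6% of all genes. The calls over all genes were the 0.0543% and 0.00987% given above. Whether the lean of this branch in PAS knockouts rests on single libraries was not tested. At an unadjusted p under 0.05 there was 1 of 10 in CDS knockouts (Asns), against 2.62% of all genes, and 3 of 10 in PAS knockouts (Asns, Ppp1r15a and Chac1), against 5.24% of all genes. Asns, asparagine synthetase and a known ATF4 target, had the lowest p of the branch in both lines. It averaged 18.9 ± 1.18 CPM in CDS knockouts, against 21.9 ± 2.05 CPM in CDS controls, a log2 change of -0.21 ± 0.10 (adjusted p = 1.00, edgeR). In the PAS line it averaged 18 ± 2.24 CPM in PAS knockouts and 23.1 ± 3.94 CPM in PAS controls, a log2 change of -0.36 ± 0.11 (edgeR adjusted p = 0.934). Ppp1r15a, a phosphatase subunit that reverses the block on translation, had a log2 change of 0.04 ± 0.07 in CDS knockouts and of -0.22 ± 0.08 in PAS knockouts (adjusted p = 0.934, edgeR), with 23.5 ± 1.69 CPM in PAS knockouts and 27.3 ± 3.56 CPM in PAS controls.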

How the data were processed

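Raw counts of fragments per gene were deposited by the authors, made with featureCounts 2.1.1 over exons of GENCODE release 37 for mouse, with no strand option and in a separate run for each line, per the file headers. Both HISAT2 2.2.1 and STAR 2.7.11b, both GRCm38 and GRCm39, and fastp and DESeq2 are named in the submitters' processing notes, and which aligner made these tables is not given in the sources used here. Gene names came from GENCODE by identifier (51487 of 78317 identifiers, 98.85% of counts). Replicates are separate samples per the labels, and no pair of the 21 within groups was within sampling noise (chi-square per degree of freedom 3.11 to 53.4).

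The 15 libraries, with totals of 22623499 to 46472141 counts, entered a single fit with 1 mean for each group in edgeR 4.0.16 (R 4.3.3; filterByExpr, minimum count 10; TMM factors 0.986 to 1.01; robust quasi-likelihood, 11 residual degrees of freedom). The biological coefficient of variation was 7.44%. The call was an adjusted p (Benjamini-Hochberg, over all 20269 genes tested) under 0.05. CPM values are scaled by TMM. Standard errors of log2 changes were computed from each F statistic, and intervals are at 95%. The fit was checked on simulated counts. Per-library values are given for called genes, the 4 most abundant, the 3 with the lowest p in each line, Ern1 and Xbp1, by a rule. Syvn1 and, from the other pathway lists, genes other than the most abundant were named after their values were seen. The genes and lists were chosen with earlier results of these data known. Alternatives were another normalisation (DESeq2 1.42.0 size factors in edgeR), no filter, DESeq2, limma-voom 3.58.1, only the groups compared, a replicate block, removal of abundant genes and of single libraries. All deposited libraries were used, and 1 listed symbol had no identifier. A listed symbol shared by several identifiers was not matched either. Of the further degradation genes 18 of 19 symbols were matched, and of the ATF4 and CHOP branch 11 of 12.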

Additional observations from a re-analysis of the deposited data

Results flagged for a closer look

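In 6 of 90 sets of 4 libraries, one for each gene and group of 4, a library stood far from the other 3, and chance gives about 1 set in 20. Hsp90b1 was 622 CPM in CDS knockout 3, where the other CDS knockouts had 688 to 699 CPM. Canx was 657 CPM in PAS knockout 2, where the others had 713 to 717 CPM. Both are chaperones, and both libraries are those with low folding genes. Dnajb9 was 25.4 CPM in PAS knockout 4, where the others had 23.7 to 23.9 CPM. Xbp1 was 96.1 CPM in CDS control 2, where the others had 86.0 to 87.0 CPM. Sec61a1 was 186 CPM in CDS control 3, where the others had 197 to 198 CPM, and Ssr1 was 289.9 CPM in CDS control 4, where the others had 274 to 276 CPM.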

How the results depend on the processing

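The count of ER genes called stayed at 0 in all 4 comparisons under every alternative run, with the exception of PAS controls against CDS controls without the filter on low counts, where it was 1 (Syvn1). Log2 changes of single ER genes stayed within 1 standard error of the value above in 1937 cases and moved further in 42, none of them called, and the medians moved by less than the spread between libraries. Counts over all genes moved more. In CDS knockouts against CDS controls, 11 genes became 20 with DESeq2 and 31 without the filter. In PAS knockouts against PAS controls, 2 became 7 with DESeq2, 7 without the filter, 1 with only the groups compared and 1 with the replicate block. For the difference between the lines, 1 became 2 with DESeq2, 3 without the filter and 2 with limma-voom, and leaving out single libraries gave 1 to 2. In PAS controls against CDS controls, 29 became 102 with DESeq2, 201 without the filter and 10 with only the groups compared, and leaving out single libraries gave 15 to 43. The cause was not tested. Same-numbered libraries did not deviate together (correlations of -0.037 to 0.064 in the CDS line and -0.203 to 0.026 in the PAS line), and the main fit did not pair them. With so few libraries, these values cannot show whether same-numbered libraries shared a litter. With the replicate block the counts over all genes were 8, 1, 1 and 23 in the order above. Depth limits Derl3 most, with 14 to 55 counts per library.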
